A study of Mus musculus with 6 samples.

Results

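Genes of the proteasome, including the inducible subunits of the immunoproteasome, were compared in choroid ECs (endothelial cells of the vessel layer behind the retina) of young and older mice. Members were chosen by name, as gene symbols that begin with Psm, a letter from a to g and a number, which gave 49 of 22026 symbols. Of these, 48 encode subunits, activators, regulators or assembly factors of the proteasome, and 1, Psmc3ip, matches the name only and encodes a cofactor of recombination. RNAseq was performed on cells of mice at postnatal day 5 (P5) and postnatal day 30 (P30), with 3 isolations per age and 7 animals pooled in each isolation. The methods name the strain, 129/B6, with the P30 mice and do not repeat it for the P5 mice. The P30 mice were male and female, and the sex of the P5 mice is not given in the sources used here. A fluorescent antibody against the EC junction protein VE-Cadherin was injected under anaesthesia. It marked the cells for flow cytometry after dissection of RPE and choroid, and no other treatment is described. Handling differed by age, because P5 pups were cooled as their anaesthesia and were given a smaller amount of antibody per animal than P30 mice. The part of this difference in the results was not tested. Because each isolation is a pool of animals, the spread between isolations does not give the spread between single mice.

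The 26S proteasome degrades proteins that carry ubiquitin chains. Its 20S core is a barrel of α rings (Psma genes) and β rings (Psmb genes), and its catalytic sites are β subunits. The 19S regulator, built of a base with ATPases (Psmc genes) and a lid (Psmd genes), binds ubiquitin chains, unfolds the substrate and feeds it into the core. In the immunoproteasome the catalytic subunits Psmb5, Psmb6 and Psmb7 are replaced by Psmb8, Psmb9 and Psmb10, which interferon gamma induces and which favour peptides that fit MHC class I molecules. Alternative caps are PA28, built from Psme1 and Psme2 in the cytoplasm or from Psme3 in the nucleus, and PA200 (Psme4).

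The promoters of the inducible subunits are shown because these genes lay higher at P30, described further on, and because Psmb9 shares its promoter with Tap1, a peptide transporter gene of the same antigen pathway. Sequences are from RefSeq (build GRCm38.p6), run 5′ to 3′ on the strand of the gene and end just before its start. The bases between the starts of Psmb9 and Tap1, 225 in all, lie at chr17:34187331-34187555 and are given on the Psmb9 (minus) strand with a CCAAT box, which reads ATTGG on this strand, in capitals. For Psmb8 (plus strand, chr17:34197945-34198194) the 250 bases before the start are given with a GAS motif, an element of the response to interferon gamma, in capitals. For Psmb10 (minus strand, chr8:105938393-105938642) the 250 bases held none of the motifs searched.
Psmb9: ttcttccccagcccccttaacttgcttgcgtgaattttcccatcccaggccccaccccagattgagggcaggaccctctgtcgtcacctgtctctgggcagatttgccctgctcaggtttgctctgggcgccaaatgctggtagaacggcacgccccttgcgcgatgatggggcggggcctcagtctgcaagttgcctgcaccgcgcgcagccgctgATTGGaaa
Psmb8: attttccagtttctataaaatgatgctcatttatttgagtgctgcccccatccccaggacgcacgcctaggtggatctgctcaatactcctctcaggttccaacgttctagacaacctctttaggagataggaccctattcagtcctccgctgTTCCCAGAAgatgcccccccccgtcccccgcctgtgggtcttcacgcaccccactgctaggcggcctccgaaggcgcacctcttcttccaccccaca
Psmb10: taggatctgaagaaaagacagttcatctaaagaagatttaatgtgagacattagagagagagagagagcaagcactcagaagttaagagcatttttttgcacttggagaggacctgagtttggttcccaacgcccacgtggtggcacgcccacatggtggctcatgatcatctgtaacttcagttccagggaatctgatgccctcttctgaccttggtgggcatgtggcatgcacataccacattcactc

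Windows of 250 bases were found for 41 of the 49 members and searched on both strands for 4 motifs. These were the antioxidant response element (ARE, TGACNNNGC), to which the proteasome regulators Nfe2l1 and Nfe2l2 bind, the interferon-stimulated response element (ISRE), the GAS motif (TTCNNNGAA) and the CCAAT box (CCAAT). Among the 5 windows of Psmb8, Psmb9, Psmb10, Psme1 and Psme2, the GAS motif was found in 1 (Psmb8) and the CCAAT box in 1 (Psmb9), while ARE and ISRE were found in 0. Among the 36 windows of the other members, ARE was found in 5 (Psmb5, Psmb6, Psmc6, Psmd12 and Psmd9), ISRE in 3 (Psmb3, Psmd4 and Psmd9), GAS in 1 (Psmg1) and the CCAAT box in 14. Of all 32851 windows, 10.2% held ARE, 2.98% ISRE, 7.02% GAS and 33.8% the CCAAT box. A match is a run of letters and not evidence of binding.

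Expression was given as FPKM, fragments per kilobase of transcript scaled to the size of the library. Being per length, it allows levels of genes to be compared. This holds only with caution for genes with near-identical copies elsewhere, described further on, because the part of the copies was not tested. Summed FPKM was between 1432700 and 1485332 at P5 and between 1571227 and 1734639 at P30, and read depth is unknown. Of 10 endothelial markers, all were detected in each isolation (summed FPKM 20033 to 20801 at P5 and 27444 to 33311 at P30). Single markers differed in direction. The mean of Plvap was 4692 at P5 and 11590 at P30, and that of Emcn was 3002 and 5523. For Cdh5, the gene of VE-Cadherin, the means were 2971 and 1885, and the ages overlapped in Pecam1, Tek, Erg and Sox18. Markers of RPE summed to 65.5 to 144 at P5 and to 3796, 2109 and 495 in P30 isolations 1, 2 and 3, so that P30 isolation 3 stood apart from the other two. Summed markers of pericytes (476 to 1748 at P5 and 1880 to 6375 at P30), smooth muscle (535 to 562 and 603 to 1235), fibroblasts (405 to 832 and 1411 to 3178) and photoreceptors (15.8 to 26.4 and 58.2 to 401) were also higher in each P30 isolation, and those of melanocytes (97.03 to 457 and 119.9 to 1251) and erythroid cells (151 to 484 and 433 to 1394) overlapped. The part of these cells in the results was not tested. In such bulk samples, fewer cells of a type and less RNA per cell cannot be told apart.

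Differences between ages were tested with limma on log2(FPKM + 1) over the 12481 genes whose mean FPKM reached 5 at P5, at P30 or at both, and every change below is the limma coefficient, P30 minus P5, on that log2 scale. It understates the change of genes with low FPKM. Of the 49 members, 48 were tested, the exception being Psmb11. With an adjusted p under 0.01 and at least a 2-fold difference in mean FPKM + 1, 0 members were higher at P30, where 5.89% of all genes tested were called. With the same limits 1 member was higher at P5, Psmc3ip, which is not a proteasome gene, where 5.82% of all genes were called. With the adjusted p alone, 2 members were higher at P30 (Psmb8 and Psmb10; 8.51% of all genes) and 3 were higher at P5 (Psmb7, Psmd14 and Psmc3ip; 10.7% of all genes). Read against these shares, the counts of members at an adjusted p under 0.01 were no larger than the background. With an adjusted p under 0.05 there were 15 of 48, 3 of them higher at P30 (16.1% of all genes) and 12 higher at P5 (22.4%). The share of members was thus below that of all genes at P30 and slightly above it at P5. At an unadjusted p under 0.05 by limma, 5 of the 48 members lay higher at P30 and 19 lay higher at P5, beside 2584 and 3592 of the 12481 genes. That is a smaller share of the members than of all genes at P30 and a larger one at P5. With the adjusted p alone, 0 members were called as higher at P5 when P5 isolation 1, 2 or 3 was left out, and 1, 0 and 1 as higher at P30. The shares of all genes also fell in these fits, to 4.20%, 2.62% and 2.96% higher at P5 and to 4.71%, 3.44% and 3.63% higher at P30. Without P30 isolation 2 the count higher at P30 was 1 (5.90% of all genes), and without P30 isolation 3 it was 5 (9.14%), of which 3 passed the 2-fold limit. Shares of all genes past both limits were not counted in these fits. Psmc3ip kept its call past both limits only without P30 isolation 3.

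The 3 values of each age did not overlap in 21 of the 48 members tested. In 4 of these (Psma8, Psmb8, Psmb10 and Psme1) every P30 isolation lay above every P5 isolation, which held for 22.0% of all genes tested. In the other 17, every P30 isolation lay below every P5 isolation, as in 33.0% of all genes. The median change over the 48 members was -0.22, beside -0.10 over all genes (-0.13 beside -0.07 without P30 isolation 3), and 68.8% of the members had a coefficient below 0, beside 56.4% of all genes. Levels spanned a wide range, from a mean FPKM of 8.33 (Psma8) to 528 (Psmb4) at P5.

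**Figure D1:**
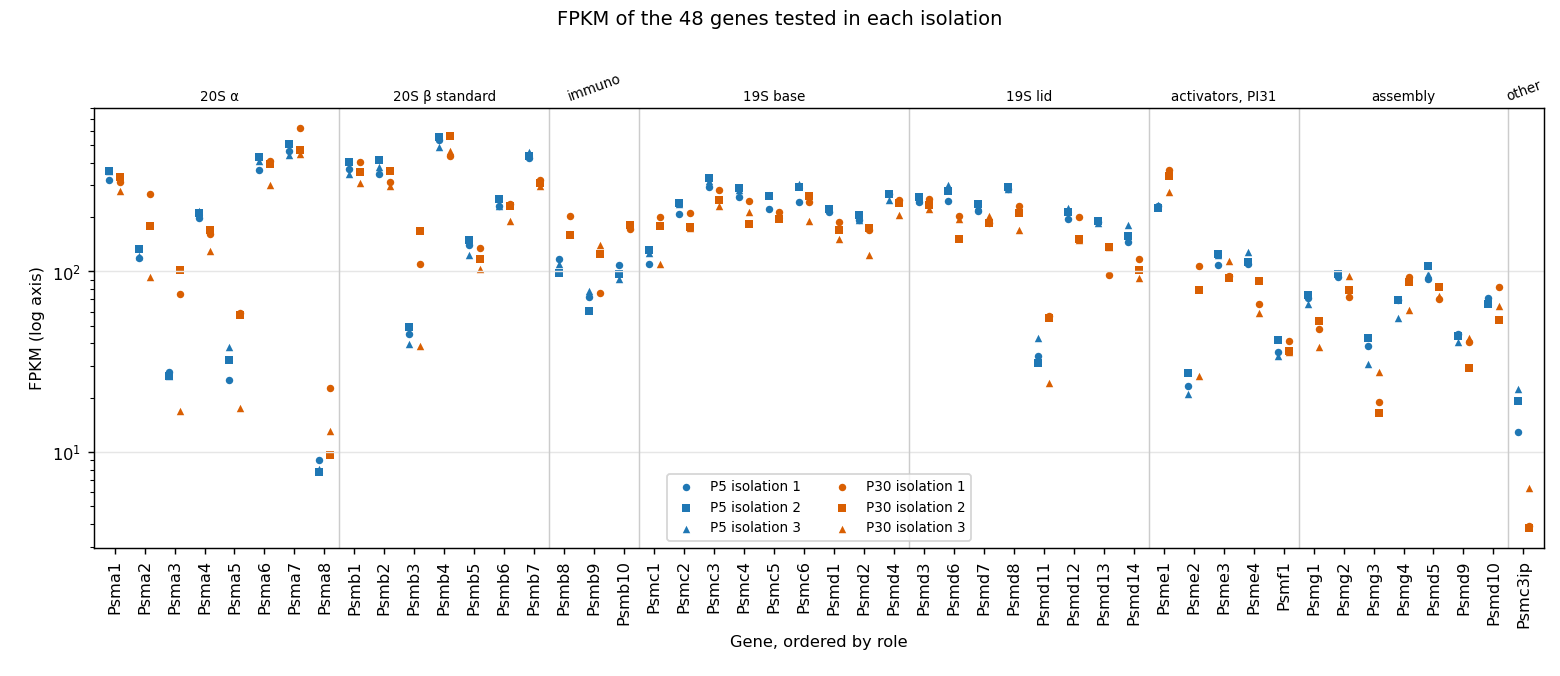
FPKM (log axis) of the 48 genes tested, ordered by role, in each isolation; blue symbols are P5, orange symbols P30, and circles, squares and triangles are isolations 1, 2 and 3. Most standard subunits lie at 100 FPKM or more, Psmb8 and Psmb10 lie higher in every P30 isolation, and in Psma3, Psma5, Psmb3, Psmd11 and Psme2 P30 isolation 3 lies well below the other two.

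The inducible catalytic subunits lay higher at P30, and for Psmb8 and Psmb10 the difference passed the test. In this and all later sentences, 3 values at an age are those of isolations 1, 2 and 3 in that order. Psmb10 (MECL-1, trypsin-like site, chr8:108459628-108462292, minus strand, mm9) was measured at an FPKM of 108, 97.2 and 90.8 at P5 and 172, 182 and 178 at P30. The P30 values lay close together and all were above the highest P5 value. The mean rose from 98.8 ± 8.95 to 177 ± 5.03 (SD, n = 3), a change of 0.84 ± 0.10 (SE) with adjusted p = 0.0012 by limma. Psmb8 (LMP7, chymotrypsin-like site, chr17:34334666-34338399, plus strand, mm9) was measured at 117, 97.9 and 110.0 at P5 and 202, 159.7 and 160.3 at P30. Again the ages did not overlap, with P30 isolation 1 the highest. The change was 0.67 ± 0.13 (SE) with adjusted p = 0.00726.

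Psmb9 (LMP2, chr17:34318933-34324709, minus strand, mm9), which replaces Psmb6, was measured at 72.5, 60.8 and 77.9 at P5 and 76.4, 125 and 139 at P30. Here the ages overlapped, because P30 isolation 1 lay within the P5 values while P30 isolations 2 and 3 lay above them. The change of 0.64 ± 0.23 (SE) did not pass the limit (adjusted p = 0.0601 by limma), and without P30 isolation 1 it was 0.91 with an adjusted p of 0.00497. The call of Psmb10 was lost when P5 isolation 2 was left out (adjusted p = 0.0105). That of Psmb8 was lost when any 1 of the 6 isolations was left out, with adjusted p between 0.0103 (without P30 isolation 3) and 0.0386 (without P5 isolation 2). With 1 isolation left out the change stayed between 0.56 and 0.73 for Psmb8 and between 0.78 and 0.91 for Psmb10. Psmb8 also lost its call with equal FPKM sums (change 0.50, adjusted p = 0.0206) and with no trend in the fit (adjusted p = 0.0178).

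Of the 3 standard catalytic subunits, 1 fell and 0 rose. Psmb7, the trypsin-like subunit whose place Psmb10 takes, was measured at 423, 434 and 457 at P5 and 319.9, 309.6 and 298 at P30. All P30 values lay below the P5 values, and the mean fell from 438 ± 17.4 to 309 ± 11.1 (SD, n = 3), a change of -0.50 ± 0.09 (SE) with adjusted p = 0.0043 by limma. The call was lost when P5 isolation 1, 2 or 3 was left out (adjusted p = 0.0185, 0.0277 and 0.0231), with all samples set to the same median FPKM (0.0161) and with no trend (0.0152). Psmb5, the chymotrypsin-like subunit, was measured at 140.4, 149.7 and 123 at P5 and 134, 117 and 103 at P30, and Psmb6, the caspase-like subunit, at 232, 253 and 229 at P5 and 236, 231 and 189 at P30. Both ranges overlapped, with changes of -0.22 ± 0.13 (SE) and -0.13 ± 0.12 (SE) and adjusted p by limma of 0.217 and 0.406.

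Set against its standard partner, each inducible subunit made up on average a larger part of its pair at P30. Psmb8 was 45.5%, 39.5% and 47.2% of the summed FPKM of Psmb8 and Psmb5 at P5 and 60.1%, 57.7% and 60.9% at P30, so that it was the lower of the pair at P5 and the higher at P30. The mean share was 44.1% ± 4.03 at P5 and 59.6% ± 1.63 at P30 (SD, n = 3). The log2 ratio of Psmb8 to Psmb5, taken on FPKM + 1, was 0.90 higher at P30 without overlap (exact two-sided permutation test, p = 0.1, 0.15 after Benjamini-Hochberg adjustment over the 3 pairs). Psmb10 was 20.4%, 18.3% and 16.6% of its pair with Psmb7 at P5 and 34.9%, 37.0% and 37.4% at P30. This was the largest shift of the 3, 1.34 in log2 ratio, again without overlap (exact permutation p = 0.1, adjusted p = 0.15). Psmb9 was 23.8%, 19.4% and 25.4% of its pair with Psmb6 at P5 and 24.5%, 35.1% and 42.4% at P30. Its ratio was 0.77 higher on average, but P30 isolation 1 lay within the P5 range (exact permutation p = 0.2, adjusted p = 0.2). With 3 isolations per age the test cannot give a p below 0.1, so that none of the 3 shifts could reach 0.05. Copies elsewhere in mm9, described further on, hold all of the coding sequence of Psmb5 and 25.3% of that of Psmb7, and their part in these ratios was not tested.

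**Figure D2:**
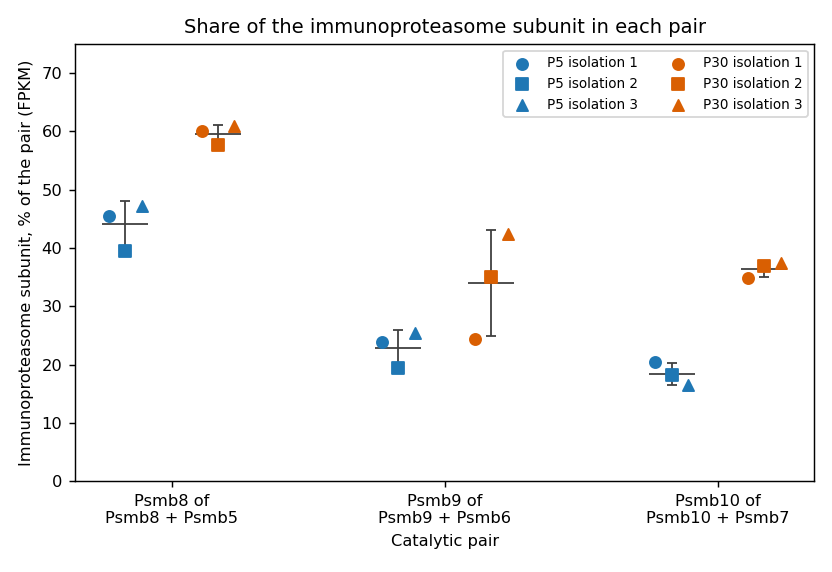
Share (%) of the inducible subunit in the summed FPKM of each catalytic pair, in P5 (blue) and P30 (orange) isolations; horizontal bars are means and error bars SD (n = 3). The ages are apart for Psmb8 with Psmb5 and for Psmb10 with Psmb7, and P30 isolation 1 lies with the P5 isolations for Psmb9 with Psmb6.

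Summed over the 3 sites, the inducible subunits gave an FPKM of 298, 256 and 279 at P5 and of 450.0, 466 and 478 at P30. The standard subunits gave 795, 837 and 809 at P5 and 689.7, 658 and 590.0 at P30. Standard subunits thus remained the more abundant at both ages, with the inducible sum higher and the standard sum lower in each P30 isolation than in any P5 isolation.

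Leukocytes express the immunoproteasome without induction, so their markers are given beside these values. Of 12 macrophage and leukocyte markers, 6 fell past both limits and 0 rose, and the list summed to 1371, 1371 and 1092 FPKM at P5 and to 1051, 397 and 681 at P30. Ptprc, the pan-leukocyte surface phosphatase, was at 25.4, 27.7 and 28.3 at P5 and 7.97, 7.61 and 7.88 at P30. Not every marker was lower at P30. Lyz2, the lysozyme of myeloid cells, was at 263, 215 and 134 at P5 and 380.4, 124 and 257 at P30, and Cd14, a receptor for endotoxin, at 61.2, 74.2 and 47.5 at P5 and 146, 56.4 and 56.9 at P30, and for both the highest value was in P30 isolation 1. The ages also overlapped in Cd68 and Itgam. Lymphocyte markers summed to 5.62 FPKM at most, and Cd3e, Cd3g, Nkg7 and Gzma were listed at 0 in all isolations. The part of these cells in the values of the inducible subunits was not tested.

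The genes that load peptides on MHC class I moved in both directions. Of 12 such genes tested, 3 were higher at P30 past both limits, namely the transporter subunit Tap2 (1.13), tapasin (Tapbp, 1.10) and its relative Tapbpl (0.997). Canx, a chaperone of class I chains, fell by 0.63 with adjusted p = 0.00159 by limma. Tap1, which shares the promoter printed above with Psmb9, was at 103, 71.5 and 82.96 at P5 and 121, 136 and 84.9 at P30. Unlike Psmb9, its highest value was in P30 isolation 2 and its lowest P30 value in isolation 3, and its change of 0.39 ± 0.21 (SE) did not pass the limit (adjusted p = 0.173). The class I genes H2-K1 and H2-D1 and their partner B2m lay above P5 in every P30 isolation (changes of 1.62, 1.06 and 0.73) with adjusted p of 0.0161, 0.0181 and 0.0115 by limma. The median change of the 12 was 0.56.

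Of 11 genes of the interferon gamma receptor and its regulators, 3 rose past both limits. These were the feedback inhibitor Socs1 (3.13 ± 0.28 (SE)), the transcription factor Irf1 (2.91 ± 0.42 (SE)), which drives immunoproteasome genes, and Irf8 (1.64 ± 0.11 (SE)), with limma adjusted p of 0.00033, 0.0022 and 0.00017. Irf1 was at 172, 117 and 142 at P5 and 1395, 1731 and 512 at P30, high in all P30 isolations but lowest in isolation 3. Of the 11, 6 lay above P5 in every P30 isolation (22.0% of all genes tested), and 2 lay below it (33.0%). These 2, the receptor chain Ifngr2 (-0.39) and the kinase Jak1 (-0.38), did not pass (adjusted p = 0.0951 and 0.025 by limma). The median change of the 11 was 0.51. Of 7 interferon gamma target genes, 6 lay above P5 in every P30 isolation (22.0% of all genes tested). In this list 1 passed the adjusted p alone (Gbp2, 0.87 ± 0.14 (SE), adjusted p = 0.00354 by limma) and 0 passed both limits. At P30 isolation 3 was the lowest of the 3 in each of these 7 genes, and also in Psme1 and Psme2. It was not the lowest for Psmb9 or Psmb10, and for Psmb8 isolations 2 and 3 were nearly equal (159.7 and 160.3).

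**Figure D3:**
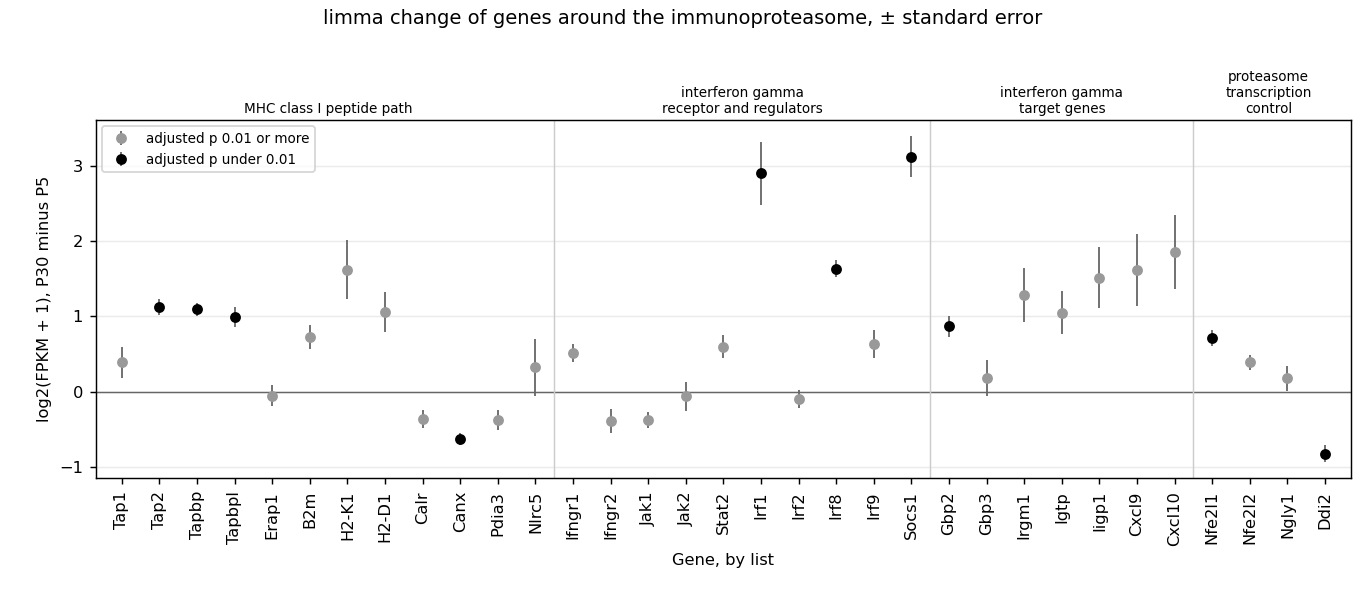
Limma change, P30 minus P5 on log2(FPKM + 1), with its standard error, for genes of peptide loading, the interferon gamma pathway (1 gene of this list is left out) and the transcriptional control of the proteasome; black points have an adjusted p under 0.01. Socs1, Irf1 and Irf8 lie highest among the black points, while Canx and Ddi2 are the black points below 0.

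Regulators of proteasome gene transcription were tested as a list of 4. Nfe2l1, which raises proteasome genes when activity is short, was at 321, 299 and 277 at P5 and 537, 495 and 443 at P30, higher in every P30 isolation (0.71 ± 0.11 (SE), adjusted p = 0.00266 by limma). Ddi2, the protease that activates the Nfe2l1 protein, was at 105, 101 and 121 at P5 and 60.1, 60.8 and 61.5 at P30 and was lower (-0.83 ± 0.11 (SE), adjusted p = 0.00166). Nfe2l2 and Ngly1, the enzyme that removes glycans from Nfe2l1, had changes of 0.39 and 0.17 and did not pass (adjusted p = 0.0213 and 0.422).

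Among the PA28 activators, Psme1 and Psme2, which interferon gamma also induces, had positive changes and Psme3 a negative one. Psme1 (chr14:56196960-56200366, mm9) was at 229, 225 and 234 at P5 and 364, 339.9 and 275 at P30. Every P30 value lay above the P5 values, which differed little among themselves, and the change was 0.50 ± 0.12 (SE) (adjusted p = 0.0163 by limma). Psme2, its neighbour on the same chromosome (chr14:56206278-56209950, mm9), was at 23.3, 27.5 and 21.1 at P5 and 108, 78.5 and 26.5 at P30. P30 isolation 3 was within the P5 range and the other two lay far above it, and the change of 1.32 ± 0.46 (SE), the largest positive one of the members, did not pass (adjusted p = 0.0579). Without P30 isolation 3, Psme1 and Psme2 had changes of 0.62 and 1.90 with adjusted p of 0.00352 and 0.00126. Psme1 also passed with all samples set to the same median FPKM (0.00864). Although Psme1 and Psme2 join in the same ring, Psme2 was measured at 23.96 ± 3.26 beside 229 ± 4.49 for Psme1 at P5 (SD, n = 3). Psme3, the nuclear form, was at 109, 125 and 124 at P5 and 94.1, 92.4 and 114 at P30, with a change of -0.25 (adjusted p = 0.14).

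A near-identical copy of the Psme2 coding sequence lies on another chromosome. The copy (chr11:48758901-48759620, minus strand, mm9) differs from the coding sequence of Psme2 in 5 of 720 bases (99.3% identity). Coding bases 394 to 543 of Psme2 are shown with the bases of the copy at chr11:48759078-48759227 (mm9), and the 3 differences in this stretch are in capitals. The sequence of Psme2 is from GENCODE vM1 and that of the copy from the mm9 genome.
Psme2: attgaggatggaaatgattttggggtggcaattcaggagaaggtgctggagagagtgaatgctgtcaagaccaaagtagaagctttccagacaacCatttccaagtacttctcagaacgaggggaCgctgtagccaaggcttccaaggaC
Psme2 copy: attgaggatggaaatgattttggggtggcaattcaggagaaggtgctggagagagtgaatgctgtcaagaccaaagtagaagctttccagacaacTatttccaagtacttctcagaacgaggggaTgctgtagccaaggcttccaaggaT

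Such copies were searched for all members by aligning their longest coding sequence (GENCODE vM1) to mm9, with at least 95% identity over at least 50 bases. In 10 members (Psma2, Psma3, Psma4, Psma5, Psmb3, Psmb5, Psmc1, Psmd2, Psmd11 and Psme2) copies elsewhere held at least 90% of the coding sequence. Psmb7 had 25.3% and Psmc6 8.21%, and for the other members none was counted. Matches at a locus annotated under the member's own name were not counted, and Psmb9 and Psmd14 each have 2 such loci. How the authors' processing divided reads between gene and copy was not tested. The median of the mean FPKM at P5 was 83.8 over these 10 members and 224 over the 38 others tested. The part of the copies in these levels was not tested. In P30 isolation 3, the 10 members were at 0.191 to 0.821 times the mean of P30 isolations 1 and 2 (median 0.421). For the 38 other members tested this ratio was 0.679 to 1.64 (median 0.892), and over all genes tested its median was 0.940. The limit of 90% and this ratio were chosen after the values had been seen.

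**Figure D4:**
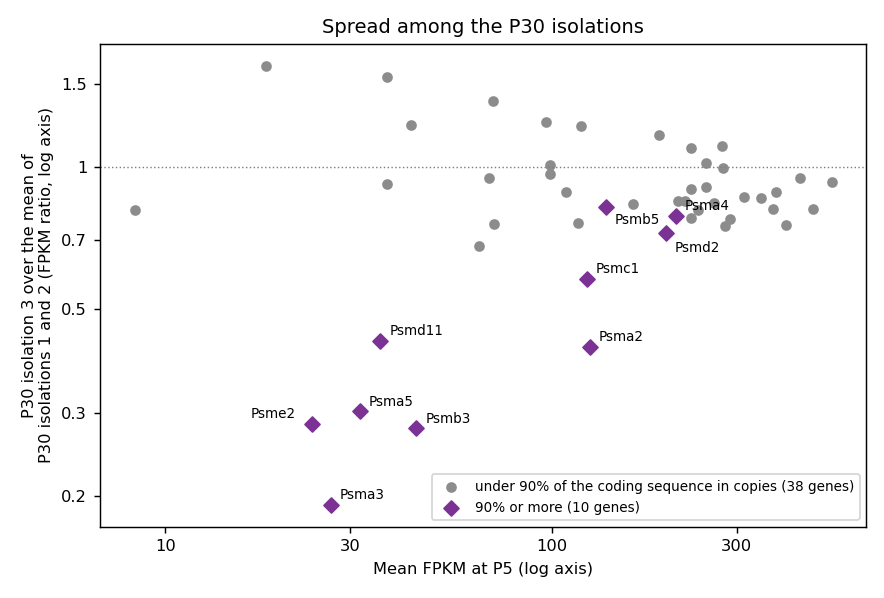
FPKM in P30 isolation 3 over the mean of P30 isolations 1 and 2, against mean FPKM at P5 (both axes log), for the 48 genes tested; diamonds are the 10 genes with copies of at least 90% of their coding sequence elsewhere in mm9. Psma3, Psme2, Psmb3 and Psma5 lie lowest, and the circles lie between 0.679 and 1.64.

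The α ring subunits showed no shared direction. Of 7, 4 had coefficients above 0 and 3 below, with a median of 0.10 and with 0 past the limit by limma. At an unadjusted p under 0.05, 1 (Psma4) was lower at P30, as were 3592 of all 12481 genes. Psma7 was the highest (467, 507 and 441 at P5 and 622, 468 and 445 at P30) at both ages. The lowest mean was that of Psma3 at P5 (27.7, 26.2 and 26.3 at P5 and 75.2, 101 and 16.9 at P30) and that of Psma5 at P30 (24.9, 32.2 and 38.4 at P5 and 59.05, 57.1 and 17.6 at P30). Psma3 is one of the genes with copies, and its P30 values ran from below the P5 range to well above it. Its change of 0.90 ± 0.58 (SE) (adjusted p = 0.252 by limma) was 1.67 without P30 isolation 3 (adjusted p = 0.00118) and -0.63 with P30 isolation 3 as the lone P30 sample. Psma4 was at 197, 212 and 217 at P5 and 162, 169 and 130.1 at P30, without overlap, with a change of -0.45 (adjusted p = 0.0254). In the 3 members of the ring without such copies (Psma1, Psma6 and Psma7) the ages overlapped, with changes of -0.17, -0.14 and 0.10. Psma2 and Psma5, both with copies, also overlapped (0.40 and 0.31). Psma8, the α subunit of testis, was low in all isolations (9.10, 7.80 and 8.08 at P5 and 22.5, 9.69 and 13.03 at P30), with every P30 value above P5 (0.71 ± 0.33 (SE), adjusted p = 0.121). Without P30 isolation 1 its change was 0.40 (adjusted p = 0.237).

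The 4 structural β subunits overlapped between ages. Psmb4 was the highest (536, 556 and 492 at P5 and 435, 562 and 462 at P30), with a change of -0.13, and Psmb1 and Psmb2 had changes of -0.07 and -0.23. Psmb3, which has copies, was the lowest (44.8, 48.98 and 39.9 at P5 and 110.4, 168 and 38.7 at P30), with its change of 1.0003 ± 0.47 (SE) (adjusted p = 0.13 by limma) and with P30 isolations 1 and 2 high and isolation 3 below the P5 values. Without P30 isolation 3 the change was 1.60 (adjusted p = 0.00236), and with P30 isolation 3 as the lone P30 sample it was -0.19. Thus 3 members, Psma3, Psmb3 and Psme2, passed both limits as higher at P30 once P30 isolation 3 was left out, and all 3 are among the genes with copies. The share of all genes past both limits in that fit was not counted. At any fold, 9.14% of all genes were called as higher at P30 in it. Psmb11, the catalytic subunit of thymus cortex, was at 0.45, 0.47 and 0.40 at P5 and listed at 0 in each P30 isolation, and it was not tested.

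The 19S regulator lay lower at P30 in most of its subunits, by small amounts. Of 17 tested, 15 had a coefficient below 0, the median was -0.30 beside -0.10 over all genes, and in 10 every P30 value lay below every P5 value (33.0% of all genes). The exceptions were Psmc1 (0.36) and Psmd11 (0.25), both with copies. Of the 14 subunits without copies of at least 90%, all 14 had coefficients below 0 (-0.64 to -0.08, median -0.33), and 13 did with all samples set to the same median FPKM. Only 1 of the 17, Psmd14, passed the adjusted p limit. At an unadjusted p under 0.05 by limma, 12 of the 17 were lower at P30 and 0 higher. Over all 12481 genes tested, 3592 were lower and 2584 higher at that limit.

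Psmd14, the deubiquitinase of the lid that removes ubiquitin chains as substrates enter, was at 146, 158 and 179.9 at P5 and 117, 103 and 91.6 at P30. The P30 values all lay below P5, with the mean going from 161 ± 17.04 to 104 ± 12.7 (SD, n = 3). It fell by 0.64 ± 0.13 (SE) with adjusted p = 0.00887 by limma. The call was lost when any isolation other than P30 isolation 1 was left out, with adjusted p between 0.0183 (without P30 isolation 3) and 0.041 (without P5 isolation 3), with the same median FPKM in all samples (0.0216), with no trend (0.0205) and with no minimum FPKM (0.0108). Psmd13, another lid subunit, was at 189, 192 and 186 at P5 and 96.1, 136 and 136 at P30, with P5 values close together and no overlap. Its change of -0.64 ± 0.15 (SE) had adjusted p = 0.0143 and passed without P30 isolation 1 (0.00961). The lid subunits Psmd6 and Psmd8 had changes of -0.59 and -0.51, with adjusted p of 0.0148 and 0.0162. The remaining lid subunits Psmd3, Psmd7 and Psmd12 had changes of -0.08, -0.26 and -0.35.

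Mean levels at P5 ran from 35.9 to 313 in the 19S regulator and from 26.7 to 528 in the standard core. The lowest of the lid, the ATPases and the other base subunits (Psmd11, Psmc1 and Psmd2) have copies, as has Psma3 in the core. The part of the copies in these low levels was not tested. At P5 the highest lid subunit was Psmd8 (289 ± 5.07; SD, n = 3), the lowest Psmd11 (35.9 ± 6.11). Among the ATPases, which unfold the substrate, Psmc3 was the highest (292, 330.0 and 316 at P5 and 284, 248 and 229 at P30) and Psmc1 the lowest at P5 (110.3, 132 and 127 at P5 and 201, 178 and 109.6 at P30). For Psmc3 the P30 values lay below P5 with a change of -0.30 (adjusted p = 0.0647 by limma), and for Psmc1, a gene with copies, the ages overlapped. The other ATPases, Psmc2, Psmc4, Psmc5 and Psmc6, had changes of -0.29, -0.38, -0.27 and -0.28. Among the other base subunits, the ubiquitin receptor Psmd4 was the highest (267, 269 and 248 at P5 and 250.2, 241 and 206 at P30) and the scaffold Psmd2 the lowest (193, 205 and 193 at P5 and 170.1, 173 and 124 at P30), and both had negative changes (-0.17 and -0.35) that did not pass. Psmd1, the second scaffold, had a change of -0.37 (adjusted p = 0.0296).

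**Figure D5:**
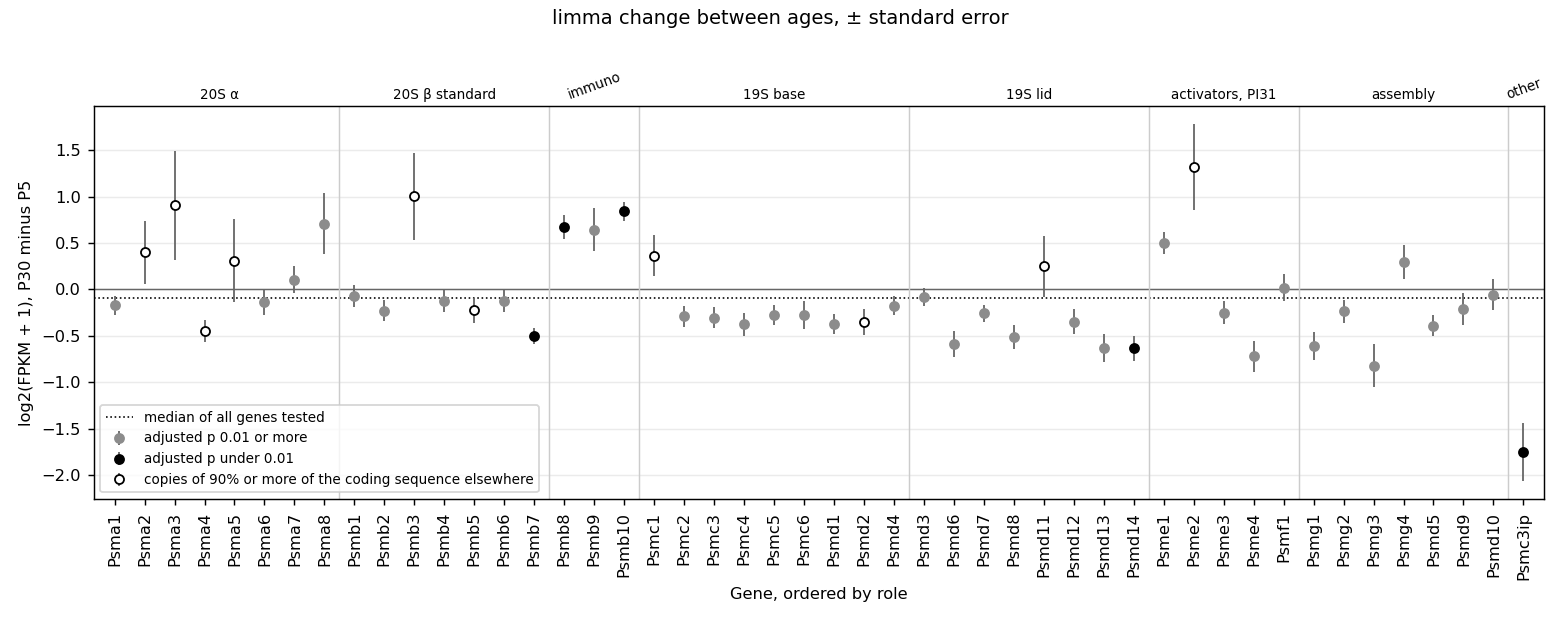
Limma change, P30 minus P5 on log2(FPKM + 1), with its standard error, for the 48 genes tested by role; black points have an adjusted p under 0.01, open points have copies of at least 90% of their coding sequence elsewhere, and the dotted line is the median of all genes tested. The 3 inducible subunits lie above 0 between 0.64 and 0.84, and 15 of the 17 subunits of the 19S base and lid lie below 0.

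Neither the cap PA200 nor the core regulator PI31 passed the limit. Psme4 (PA200), a cap for degradation without ubiquitin that is known from histone turnover, was at 109.6, 113 and 128 at P5 and 66.4, 88.5 and 58.8 at P30. The P30 values all lay below P5, with a change of -0.72 ± 0.17 (SE) (adjusted p = 0.013 by limma), and it passed without P30 isolation 2 (0.00409), with quantile normalization (0.00592) and with equal FPKM sums (0.00287). Psmf1 (PI31) was at 35.95, 41.9 and 34.2 at P5 and 41.1, 36.3 and 35.7 at P30, the same range at both ages, with a change of 0.02 ± 0.15 (SE) that is -0.15 once samples are set to equal FPKM sums.

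Of the 7 assembly chaperones, 6 had negative changes and 0 passed the limit by limma (3, all lower at P30, at an unadjusted p under 0.05). Over all 12481 genes tested, 3592 were lower at P30 at that unadjusted limit. Psmg1, which starts the α ring together with Psmg2, was at 71.1, 74.3 and 66.3 at P5 and 47.9, 52.9 and 38.1 at P30, without overlap (-0.61 ± 0.15 (SE), adjusted p = 0.0173 by limma), and passed with equal FPKM sums (0.00299). Psmg2 was at 93.4, 97.2 and 98.00 at P5 and 71.98, 79.4 and 94.5 at P30, with overlapping ages (-0.24, adjusted p = 0.174). Psmg3, part of the second chaperone pair, was at 38.8, 42.7 and 30.8 at P5 and 19.04, 16.5 and 27.6 at P30, all P30 values below P5 (-0.82 ± 0.23 (SE), adjusted p = 0.0277). Its partner Psmg4 was at 69.3, 69.2 and 55.4 at P5 and 92.97, 87.05 and 61.2 at P30 and had the opposite sign (0.30, adjusted p = 0.239). Of the chaperones of the 19S base, Psmd5 was the highest (91.2, 107 and 97.4 at P5 and 70.2, 81.7 and 73.2 at P30; -0.39, adjusted p = 0.035) and Psmd9 the lowest (45.2, 43.9 and 40.6 at P5 and 40.8, 29.2 and 42.9 at P30; -0.21, adjusted p = 0.361). Psmd10, also known as gankyrin, had a change of -0.06.

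Psmc3ip, the member by name only, changed most of all 48. It was at 12.9, 19.2 and 22.4 at P5 and 3.89, 3.82 and 6.32 at P30, and it fell by 1.75 ± 0.32 (SE) with adjusted p = 0.00525 by limma, which is 3.38-fold in mean FPKM + 1. The call was lost when any isolation other than P30 isolation 3 was left out (adjusted p between 0.0104 without P30 isolation 1 and 0.0346 without P5 isolation 2). Of 16 proliferation genes 14 were higher at P5 past both limits.

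Genes that work with the proteasome but lie outside the naming rule were read from lists, and Paaf1 was not found among the symbols. Of 15 partners tested, 1 fell past both limits, Uchl5, a deubiquitinase of the 19S base, at 59.4, 69.4 and 79.9 at P5 and 27.4, 33.04 and 39.1 at P30 (-1.05 ± 0.18 (SE), adjusted p = 0.00419 by limma). With the adjusted p alone Usp14, the other deubiquitinase bound to the base, was also lower (-0.82 ± 0.17 (SE), adjusted p = 0.00881) and Zfand5, an activator of the 26S form, was higher (0.54 ± 0.10 (SE), adjusted p = 0.00673). Zfand5 did not pass with equal FPKM sums or quantile normalization, nor Usp14 without P30 isolation 3. Pomp, the maturation factor of the core, was high and overlapped (530.2, 620.3 and 655 at P5 and 641, 649 and 489 at P30; -0.03).

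Of 6 genes for ubiquitin supply and activation and 6 of the p97 unfoldase, 0 passed either limit by limma (medians -0.21 and -0.11). At an unadjusted p under 0.05, 1 of the former was higher and 2 lower at P30, and 2 of the latter were lower. Over all 12481 genes tested, 2584 were higher and 3592 lower at that limit. The signalosome COP9, which is built like the 19S lid, had 4 of 9 subunits lower with the adjusted p alone and 1 of them past both limits (Cops7b, -1.14 ± 0.16 (SE), adjusted p = 0.00203 by limma), with a median of -0.58. The cytosolic folding machine CCT had 5 of 8 subunits lower with the adjusted p alone and a median of -0.68. In all 8 every P30 value lay below every P5 value (33.0% of all genes tested). With the adjusted p alone, 10.7% of all genes were lower at P30. The 19S median of -0.30 was thus smaller in size than that of either complex, a comparison that was not tested.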

How the data were processed

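RNA of 6 isolations of choroid ECs, 3 at P5 and 3 at P30 with 7 animals each, was sequenced. Per the labels and methods, the authors prepared TruSeq libraries, processed reads with CASAVA 1.8.2 and FastQC, aligned them to mm9 with TopHat and deposited 1 FPKM value per gene symbol from Cufflinks, with GC and upper quartile normalization. The versions of TopHat and Cufflinks and the annotation are not given in the sources used here. Read counts were not analysed here, so depth is unknown and intervals for counting error cannot be given. In no pair of samples did more than 4.58% of genes with low FPKM share a ratio bin, so whole reads were not recovered.

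From the deposited FPKM, log2(FPKM + 1) was fitted by age with limma 3.58.1 (R 4.3.3, lmFit and eBayes, trend on, no block), and p-values were adjusted by Benjamini-Hochberg over all genes whose mean FPKM reached 5 at either age. The study's own count-based test needs read counts, which is why limma was used. Ratios used exact two-sided permutation tests. Groups and replicates were taken from sample titles, and same-numbered isolations share only a number. Copies were searched with BLAST 2.17.0 against mm9. The members and the gene lists were chosen with earlier results of these data known. Genes named with values were the 6 catalytic subunits, activators, Psmf1, the Psmg chaperones, members past either limit, the 5 largest changes in each direction, the extremes of level of each role, and list genes past both limits, at most 3 per direction. Others (such as Tap1, Canx, Gbp2, Usp14, Zfand5, Pomp, Nfe2l1, Ptprc, Lyz2, Cd14 and class I genes) were named after their values had been seen. Alternatives were other pseudocounts, minimum FPKM values and scalings, no trend, a block and each isolation left out. Some genes of the lists are not reported here. The p-values rest on differences between pooled isolations and not between single mice. In limma the spread of each gene is drawn toward a trend over all genes.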

Additional observations from a re-analysis of the deposited data

How the results depend on the processing

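Counts of members with an adjusted p under 0.01 at any fold came to 2 with P30 above P5 and 3 with P5 above P30 as reported (1062 and 1338 of all genes tested). They were 1 and 1 with no trend (813 and 981), 2 and 6 with quantile normalization (1113 and 1500), 1 and 11 with equal FPKM sums (903 and 2489), 3 and 1 with the same median FPKM (1273 and 1103), 3 and 12 at an adjusted p limit of 0.05 (2011 and 2794), and 2 and 2 with no minimum FPKM (955 and 1195). Leaving out 1 isolation gave 0 to 5 and 0 to 3, beside 3.44% to 9.14% and 2.62% to 10.3% of all genes. With the 2-fold limit it gave 0 to 3 higher at P30 and 0 to 1 higher at P5, and the shares of all genes at that limit were not counted. A fit with P30 isolation 3 as the lone P30 sample was added after seeing the data. It assumes that this isolation varies like the P5 isolations, so its calls are not given. In this fit the median change of the members was -0.36, beside -0.14 over all genes. Restricting the members to those with under 90% of the coding sequence in copies, also added later, left the reported counts as they were. Equal FPKM sums moved the median change of all genes from -0.10 to -0.27 and that of the members from -0.22 to -0.39, which is -0.12 relative to all genes in both cases.

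Same-numbered isolations did not deviate together (correlations of deviations -0.0618, -0.0905 and -0.0305). With the replicate block the counts at any fold were 1 and 0 and the 2-fold count at P5 was 0, while over all genes 707 and 708 were called at any fold. A sign-flip test over same-numbered pairs, the replicate block for the ratios, gave an exact p = 0.25 for each, the smallest it allows. The 3 ratios kept their direction in all alternatives. They ran from 0.76 to 0.99 (Psmb8 to Psmb5), 0.50 to 1.09 (Psmb9 to Psmb6) and 1.25 to 1.43 (Psmb10 to Psmb7) with 1 isolation left out.

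Changes turned sign for Psmf1, to -0.15 with equal FPKM sums, -0.0082 without P5 isolation 1, -0.044 without P5 isolation 3, -0.047 without P30 isolation 1 (between -0.047 and 0.0998 with 1 isolation left out) and -0.058 with P30 isolation 3 alone. With P30 isolation 3 alone they also did, among the 21 members named with a test, for Psma3 (-0.63), Psmb3 (-0.19) and Psmg4 (-0.071). Over the 48 members, coefficients above 0 went from 15 to 6 in that fit, in the 19S regulator from 2 to 0 of 17 and in the standard core from 5 to 0 of 14. The causes were not tested.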

Other observations

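By mean FPKM among the 49 members, the inducible catalytic subunits held lower places at P5 than at P30. Psmb8 was at place 31 at P5 and 22 at P30, Psmb10 at 32 and 21, and Psmb9 at 36 and 30. Psme1 was at place 17 at P5 and 5 at P30, Psmb7 at 3 and 7, and Psmd14 at 25 and 32. These places are a description of means over 3 isolations and were not tested.

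Among all genes tested, ranked by mean FPKM over the 6 isolations, the most abundant member was Psmb4, above 96.2% of genes, followed by Psma7, above 96.0%. Psmb8 and Psmb10 lay above 79.2% and 78.8%. Psmc3ip and Psma8, with 13.7% and 14.1%, were the lowest of the members tested.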
